A study of Mus musculus with 8 samples.

Results

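The R-sRNAs described here are those that carry a strongly toxic 6mer seed. R-sRNAs are the small RNAs held by Argonaute proteins in the RNA-induced silencing complex (RISC). Members were chosen by one rule: a read was taken when the 6mer seed viability attached to it in the deposited table was under 20%. The rule uses only the letters of the seed and no level in the brain libraries. It took 2433 of 47204 read sequences, which hold 224 of the 3427 seeds seen in the table. Once reads were summed by name and seed, these made 844 of 11584 small RNA species, and the toxic reads named as mature miRNAs went under 178 of 895 mature miRNA names.

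The 8 libraries came from combined cortex and hippocampus of female mice 6 or 8 months of age. All mice carried the 5XFAD transgene (5XFADtg), a model of amyloid deposition with familial Alzheimer's disease mutations under a neuronal promoter, on a mixed C57BL/6J/SJL background. Of these, 4 libraries were from mice heterozygous for Rubicon (5XFADtg/Rubicon het, "het") and 4 from mice lacking it (5XFADtg/Rubicon ko, "ko"). Rubicon is a gene that acts in autophagy-related pathways, and the design asks whether its loss changes the RISC-bound small RNAs. Mice without the transgene or with both copies of Rubicon were not analysed here, and each library has its own mouse number in the labels. The authors describe the ko mice they compared as 6 months old and the het mice as age-matched, while their methods give 6 or 8 months. The age of each mouse was not given, so whether age differed between the genotypes could not be checked here. Because the Rubicon mRNA is not measured by small RNA reads, the genotype labels could not be checked from these data.

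Small RNAs silence targets mainly through the seed, positions 2 to 7 counted from 1 at the 5′ end, which pairs with sites in the 3′ ends of messenger RNAs. Certain 6mer seeds, rich in G near the 5′ end of the seed, match sites in genes that cells need to live, and small interfering RNAs with such seeds kill many kinds of cells. This death is called DISE (death induced by survival gene elimination). The 6mer seed viability is the mean percentage of cells left alive in 3 mouse cell lines transfected with an siRNA bearing the seed. It was measured in an earlier screen and not in these mice, so it is a property of the letters of a seed and says nothing of the survival of neurons here.

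The first set of sequences shows some of the mature miRNAs with a strongly toxic seed, together holding most of the mean toxic CPM. They are RefSeq sequences (GRCm38), written 5′ to 3′ in lower case with positions 2 to 8 in capitals, so that the first 6 capitals are the 6mer seed.
miR-22-3p: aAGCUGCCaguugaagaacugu
miR-708-5p: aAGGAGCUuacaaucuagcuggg
miR-28a-5p: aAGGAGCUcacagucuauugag
miR-744-5p: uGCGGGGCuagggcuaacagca
miR-667-3p: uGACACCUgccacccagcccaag
miR-365-3p: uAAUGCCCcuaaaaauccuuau
miR-193a-3p: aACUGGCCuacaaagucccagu
miR-193b-3p: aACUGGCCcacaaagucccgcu
miR-879-5p: aGAGGCUUauagcucuaagcc
Of these, miR-708-5p and miR-28a-5p share the seed AGGAGC and differ after it, and miR-193a-3p and miR-193b-3p share ACUGGC.

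The second set shows miRNAs that reached a toxic seed through the place where the read starts. The letters are those of the most abundant read of each start, in DNA letters as sequenced, again with positions 2 to 8 in capitals.
miR-330-3p, seed CAAAGC (18.3%): gCAAAGCAcagggcctgcagaga
miR-330-3p, seed AAAGCA (70.4%): cAAAGCACagggcctgcagaga
miR-345-5p, seed GCUGAC (17.3%): tGCTGACCcctagtccagtgct
miR-345-5p, seed CUGACC (33.4%): gCTGACCCctagtccagtgct
miR-136-5p, seed GACUCC (3.7%): gGACTCCAtttgttttgatgat
miR-136-5p, seed CUCCAU (71.4%): aCTCCATTtgttttgatgatgg
In miR-330-3p and miR-345-5p the pair of starts lies 1 base apart, and in miR-136-5p 2 bases apart.

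The third set shows reads with 1 base different from the mature miRNA inside the seed. The RefSeq sequence is above its changed read for miR-379-5p and miR-497a-5p.
miR-379-5p: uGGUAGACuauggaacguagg
miR-379-5p read with A5G: tGGTGGACtatggaacgtagg
miR-497a-5p: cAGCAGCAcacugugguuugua
miR-497a-5p read with A2G: cGGCAGCAcactgtggtttgt
let-7c read with T6C: tGAGGCAGtaggttgtatggtt
Each change is written as the mature base, its position counted from 1 at the 5′ end of the read, and the base of the read.

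The fourth set shows tRNA fragments, which have no miRNA behind them. All these reads end in CCA, the bases that are added to the 3′ end of mature tRNAs. Whether the CCA of these reads was added was not tested, and a CysGCA read that runs on past it had 21.3 CPM.
tRNA CysGCA: tCCGGGTGccccctcca
tRNA ValCAC: aCCGGGCGgaaacacca
tRNA SerAGA: tCCTGCCGactacgcca
tRNA LeuAAG: tCCCACCGctgccacca

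Strongly toxic seeds made up a small part of the RISC-bound small RNAs. CPM values are reads scaled to a library total of 1000000 that includes reads not in the table, and the levels below are per molecule and not per base. Toxic reads were 1.84, 2.43, 1.69 and 2.33% of the tabulated CPM in the 4 het libraries, and 1.41, 2.44, 2.02 and 1.11% in the 4 ko libraries. The groups overlapped (2.07% ± 0.36, SD, n = 4, against 1.75% ± 0.60, SD, n = 4), the second ko library was the highest of the 8 and the fourth ko library the lowest. The 95% Wilson interval of each share was at most 0.0738 percentage points wide and covers counting error only. Libraries held 509839 to 2634450 reads in het and 1010177 to 19878054 in ko.

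For comparison, seeds of 40 to 60% viability held 49.0% of the CPM as a mean of the libraries, seeds of 60 to 80% held 29.5%, seeds of 20 to 40% held 10.8% and seeds of 80% or more held 8.81%. Toxic seeds made 1.97% of the CPM of mature miRNA names in het and 1.63% in ko. Among all other reads they made 4.87% ± 0.35 and 4.98% ± 0.41 (SD, n = 4 each).

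Within the strongly toxic seeds, levels were very uneven. The 22 most abundant of the 224 seeds held 90% of the toxic CPM, 3 seeds were above 1000 CPM, 17 were at 100 CPM or more and 41 were under 1 CPM. Of the 224 seeds, 100 were seen in all 8 libraries, and of the 2433 reads, 241 were. Most of the CPM lay in the upper part of the toxic range. Seeds of 10 to 15% viability had 11278 CPM (73 seeds), those of 15 to 20% had 5871 CPM (91 seeds), those of 5 to 10% had 1656 CPM (52 seeds), and those under 5% had 142.5 CPM (8 seeds). The CPM-weighted mean viability of the toxic reads was 14.57% ± 0.11 in het and 14.58% ± 0.05 in ko (SD, n = 4 each), a smaller difference than the spread of either group.

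The most abundant toxic seed by far was AGCUGC (viability 14.3%), the seed of miR-22-3p. miR-22 is a conserved miRNA made in many tissues. Its seed stood at 9890, 15489, 9177 and 12609 CPM in het and at 7327, 16872, 9976 and 3050 CPM in ko. The groups overlapped in part: the second library of each genotype was the highest, and 2 of the 4 ko libraries, the first and the fourth, lay below every het library. AGCUGC alone was 57.1% ± 4.7 of the toxic CPM in het and 49.6% ± 17.0 in ko (SD, n = 4 each), and in the fourth ko library it was 27.8%. Without this seed the toxic share was 0.880% ± 0.121 in het and 0.813% ± 0.144 in ko. The difference between genotypes was −0.56 on the log2(CPM + 1) scale (SE 0.42, limma, unadjusted p = 0.210, adjusted p = 0.960). It was −0.11 without the fourth ko library and −0.93 without the second ko library.

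The Mir22 hairpin lies at chr11:75463716-75463810 (GRCm38, plus strand), inside an exon of its host transcript Mir22hg and an exon of Tlcd2. In the RNA class column of the table, most of the toxic CPM was filed under messenger RNA. That class held 11331 toxic CPM, of which 10948 CPM were reads with a miRNA name and 10632 CPM matched the Mir22hg transcript ENSMUST00000134345. A count of toxic reads by class alone therefore places miR-22-3p among the mRNA fragments.

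The second toxic seed, AGGAGC (18%), came mainly from miR-708-5p, with miR-28a-5p as its minor source. It had 1293, 1836, 1530 and 2193 CPM in het and 836, 1829, 1231 and 677 CPM in ko, again with overlap between the genotypes, and its log2 difference was −0.66 (SE 0.32, limma adjusted p = 0.849). Because the samples are bulk tissue, fewer cells of a type and less RNA per cell cannot be told apart in this or any later difference. The mature miR-708-5p lies at chr7:96249450-96249472 in an intron of Tenm4, a teneurin that acts in the nervous system, and the mature miR-28a-5p lies at chr16:24827868-24827889 in an intron of Lpp, both on the strand of the host gene.

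GCGGGG (17.2%), the seed of miR-744-5p, came next with 1153, 898, 1033 and 1757 CPM in het and 1087, 976, 1878 and 1161 CPM in ko. The Mir744 hairpin is at chr11:65734733-65734832 on the minus strand, in an intron of the kinase gene Map2k4. GACACC (17.4%), the seed of miR-667-3p, followed with 566, 587, 379 and 666 CPM in het and 479, 333, 980 and 561 CPM in ko. Neither seed separated the genotypes, and the third ko library had the highest level of both. Mir667 lies at chr12:109720006-109720097, within the large imprinted miRNA cluster of chromosome 12.

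The next 6 seeds were each between 238 and 348 CPM. AAUGCC (8.0%, 348 CPM) was the seed of miR-365-3p, GAGGCU (5.8%, 328 CPM) that of miR-485-5p and miR-879-5p, CAAAGC (18.3%, 296 CPM) that of miR-330-3p, UGAAGC (16.2%, 272 CPM) that of miR-127-5p, GCUGAC (17.3%, 269 CPM) that of miR-345-5p and ACUGGC (18.1%, 238 CPM) that of miR-193a-3p and miR-193b-3p. The first 10 seeds together held 82.0% of the toxic CPM. miR-365-3p is encoded at 2 places, beside Mir193a on chromosome 11 (Mir365-2, chr11:79726400-79726511) and beside Mir193b on chromosome 16 (Mir365-1, chr16:13453840-13453926), so both neighbouring hairpin pairs supply strongly toxic seeds.

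Among the seeds under 10% viability, GAGGCU had 2 main sources. miR-485-5p had 216, 268, 235 and 295 CPM in het and 145, 208, 416 and 221 CPM in ko, with both groups overlapping. miR-879-5p had 67.6, 257.9, 82.3 and 63.1 CPM in het and 19.1, 75.3, 31.8 and 12.7 CPM in ko, where the ko libraries were mostly lower but the second ko library lay within the het range. The Mir879 hairpin is at chr5:9375704-9375779 in an intron of 9330182L06Rik. Outside this range, miR-296-5p (GGGCCC, 15.8%, 147.9 CPM) was also among the 15 most abundant species, with 77 to 205 CPM in het and 103 to 244 CPM in ko. Other miRNAs under 10% were miR-346-5p (GUCUGC, 7.5%, 145.5 CPM), whose hairpin is in an intron of the glutamate receptor gene Grid1, miR-877-3p (GUCCUC, 8.2%, 99.2 CPM) and miR-505-5p (GGAGCC, 8.9%, 55.1 CPM).

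A toxic main seed was uncommon among miRNAs. Of the 895 mature miRNA names, 67 (7.49%) had a toxic seed as their most abundant one. Of the 754 names matched to RefSeq, 61 did, and 8 of these 61 (13.1%) lay between the ends of the imprinted chromosome 12 cluster, chr12:109563692-109743795, where 12.5% of the matched names lay. Among the matched names, which leave out miR-485-5p, the cluster thus held about the same share of toxic miRNAs as of all miRNAs.

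By source, reads that began at an annotated mature miRNA start were 83.5% of the toxic CPM as the mean of the 8 libraries (85.4% in het, 81.5% in ko). Reads that began elsewhere in a hairpin, or at the start of a miRNA whose mature form the RefSeq table lacks, made 6.98%, reads with 1 changed seed base 3.3%, tRNA fragments 2.91%, mRNA fragments 1.38%, other reads named for a miRNA or hairpin 1.33%, reads of other classes or without a match 0.527% and piRNA-named reads 0.104%. Of the 6.98%, 4.48 points were reads of mature names that the table holds, 1.60 points reads of names it lacks (1.38 points from miR-485-5p) and 0.904 points reads without a mature name. Named mature miRNAs supplied 92.1% ± 1.0 of the toxic CPM in het and 89.3% ± 5.8 in ko, with 81.2% in the fourth ko library. Counted by seed, 85.2% of the toxic CPM was the main seed of a mature name, 6.30% was another seed of a mature name and 8.52% had no mature name.

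Several miRNAs had starts on both sides of the threshold. A miRNA duplex is cut by Drosha and Dicer, and a shift of the cut by 1 base shifts the whole seed. At 10 CPM or more there were 50 pairs of a mature name and a toxic seed, under 45 names. In 19 pairs the toxic seed held over 90% of the CPM of its miRNA, in 21 it held under 10%, and in 10 it lay in between. Those 10 were miR-330-3p, miR-127-5p, miR-760-3p, miR-345-5p, miR-877-3p, miR-504-5p, miR-7044-3p, miR-485-5p, miR-342-5p and miR-667-3p. Some of the 21 pairs under 10% are a changed base at the usual start and not a shifted start, such as GGCAGC of miR-497a-5p and GACAGU of miR-132-3p.

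For miR-330-3p the toxic start CAAAGC, which is the RefSeq start, held 52.0, 38.6, 31.1 and 33.2% of the miRNA in het and 31.5, 34.9, 30 and 33.9% in ko. The start 1 base later, AAAGCA with a viability of 70.4%, held 59.9% ± 9.4 in het and 66.7% ± 2.2 in ko (SD, n = 4 each). The less toxic start was thus the commoner one in both genotypes, and the groups overlapped. Mir330 is at chr7:19181465-19181562 in an exon of Eml2.

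In miR-345-5p the order was the other way round, because its RefSeq start carries CUGACC (33.4%). The start 1 base earlier, GCUGAC, held 70.4, 55.3, 59.9 and 59.9% of the miRNA in het and 68.7, 54.1, 56.1 and 56.5% in ko, so a start not listed in RefSeq was the main one in every library. In miR-127-5p the toxic start UGAAGC held 62.8, 35.5, 42.5 and 58.1% in het and 52.8, 56.3, 37.8 and 65.8% in ko, and the start 2 bases later (AAGCUC, 54.6%) held most of the rest. Its share moved among libraries of both genotypes alike.

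The lowest viability among these starts belonged to miR-136-5p. Nearly all of this miRNA starts with CUCCAU (71.4%), but reads with 2 more bases at the 5′ end carry GACUCC (3.7%). They were 2.8, 1.8, 7.1 and 5.1% of the miRNA in het and 5.5, 5.8, 7.0 and 9.5% in ko, which overlap, and they came to 80.7 CPM. Mir136 is at chr12:109595327-109595388, on the strand opposite to the imprinted gene Rtl1. A small toxic fraction also came from miR-22-3p, whose start 1 base later carries GCUGCC (15.9%) and held 0.68% of the miRNA in het and 0.89% in ko.

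For miR-342-5p the toxic start GGGGUG (12.3%) held 89.7, 83.3, 84.0 and 84.8% in het and 79.1, 81.4, 77.8 and 70.2% in ko. All 4 ko values were below all 4 het values. For miR-760-3p, GGCUCU (19.1%) held 69.8, 68.7, 53.8 and 67.0% in het and 61.8, 56.2, 52.7 and 47.7% in ko, with overlap. For miR-877-3p, GUCCUC (8.2%) stayed between 61.4 and 69.4% in all 8 libraries. Of the 50 pairs, 2 had shares that did not overlap between the genotypes: the GGGGUG start of miR-342-5p, and GGACUC of miR-136-5p (1.04% in het and 2.08% in ko). Over all pairs of a mature name and a seed of at least 10 CPM, 3.82% did not overlap, which is close to the 4% of the toxic ones, and these shares were not tested.

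Changed bases in the seed supplied a further group of toxic reads, 260 reads with 50 seeds. The largest from a single miRNA start not shared by several miRNAs was miR-379-5p, a neuronal miRNA of the chromosome 12 cluster. Its unchanged seed GGUAGA has a viability of 34.4%, and A5G turns it into GGUGGA with 15.7%. The changed form was 16.3, 16.2, 17.2 and 16.9% of the reads with this start in het, and 14.7, 17.5, 13.5 and 18.7% in ko. All 8 libraries held it at a like share (16.7% ± 0.5 against 16.1% ± 2.4, SD, n = 4 each), at 152 CPM in the mean. An A that an ADAR enzyme has deaminated to inosine is read as G, which is the background of such a change in brain RNA. Whether these reads come from edited RNA was not tested.

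miR-497a-5p carries the seed AGCAGC (37.8%) of the miR-15/16 family, and its A2G form carries GGCAGC (9.7%). This form was 2.48, 5.52, 5.62 and 2.49% of the start in het and 6.02, 4, 6.31 and 3.86% in ko (30 CPM), with overlapping groups. In miR-16-5p, A5G gives AGCGGC (15.3%) at 0.142% in het and 0.151% in ko, and in miR-132-3p, A2G takes AACAGU (63.1%) to GACAGU (4.5%) at 0.081% in het and 0.091% in ko. The last 2 are far smaller fractions of very abundant miRNAs.

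The let-7 family, among the most abundant miRNAs of brain, reached GAGGCA (7.5%) from GAGGUA (50.3%) by T6C. In reads that begin like let-7a, let-7b and let-7c this was 0.120% ± 0.016 in het and 0.134% ± 0.006 in ko (SD, n = 4 each), which came to 143 CPM because the unchanged reads were at 112773 CPM. Over the let-7 starts, T6C had a median of 0.099% and ranked below only A3G, at 0.153%, among 18 possible seed changes. What made this change was not tested.

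To set those fractions in context, 1238 changes in the seeds of 69 abundant starts (1000 CPM or more) had a median of 0.0056% and a 95th percentile of 0.105%. Of the 56 among them that lead from a seed of 20% or more to a toxic one, 4 were over 0.1%. By kind, those of A to G had a median of 0.0857% and a 95th percentile of 0.329%. Those of T to C had a median of 0.0586% and a 95th percentile of 0.133%. The starts of miR-379-5p and miR-497a-5p were below 1000 CPM, so their changes are not among the 1238. Changes of A to G made 48.7% of the changed-base toxic CPM and changes of T to C made 39.4%. Whatever the seed they led to, these kinds also had the highest mean fractions over the abundant starts, at 0.136% and 0.0617%.

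tRNA fragments were the main toxic reads with no miRNA name. tRNA carries amino acids to the ribosome, and pieces of it are also found with Argonaute proteins. CysGCA fragments with seed CCGGGU (17.9%) had 143, 176, 149 and 218 CPM in het and 153, 90, 314 and 264 CPM in ko, ValCAC fragments with CCGGGC (9.3%) had 81.1 CPM in the mean and HisGTG fragments with GGCCGC (8.3%) had 49.6 CPM. The third ko library was the highest for CysGCA.

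The fragments of LeuAAG with CCCACC (19.3%) had 5.8, 25.4, 8.9 and 9.8 CPM in het and 8.8, 7.4, 27.5 and 240.0 CPM in ko. SerAGA with CCUGCC (5.1%) had 1.9, 6.2, 3.1 and 12.4 CPM in het and 4.8, 3.8, 25.4 and 164.6 CPM in ko. In both, the fourth ko library stood far above the other 7. Summed over all toxic tRNA reads, the libraries had 384, 400, 306 and 431 CPM in het and 332, 262, 591 and 1035 CPM in ko. All tRNA reads, toxic or not, were also highest in the third and the fourth ko libraries, at 7015 and 10897 CPM against 3787 to 5149 CPM in the other 6. Of the 203 toxic tRNA reads, 30 ended in CCA, with 148 CPM, and the fourth ko library had 430 CPM of them.

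That library also had the most short toxic reads. Reads of 15 to 18 nt were 2.75% ± 0.87 of the toxic CPM in het and 4.27% ± 3.57 in ko, and 9.44% in the fourth ko library. Among all reads, toxic or not, the share of this length was also highest there, at 1.31% against 0.683 to 1.18% in the other libraries. It held the lowest share of AGCUGC and the highest sum of the neuronal miRNAs fixed as markers, 274723 CPM against 170074 to 220138 CPM in the other libraries. Their part in the tRNA and miR-22-3p levels was not tested. Of the CPM filed under the tRNA class 8.42% had a toxic seed, of that under rRNA 7.57% and of that under miRNA 0.612%. The classes with the highest shares were piRNA (55.8%) and mRNA (28.7%), and both held mostly miRNA-named toxic reads. Of the 1273 toxic CPM under piRNA, 1244 CPM were miRNA-named, nearly all miR-744-5p, so the share under miRNA leaves out miR-744-5p as well as miR-22-3p and miR-330-3p, the last 2 filed under mRNA.

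The letters of the 224 toxic seeds differed from those of other seeds in the table, each seed counted once. G made 39.1% of the bases of toxic seeds, and 32.3, 28.4, 21.8 and 17.1% of those with viabilities of 20 to 40, 40 to 60, 60 to 80 and 80% or more. C fell over the same bins from 32.2 to 17.1%. A rose from 13.8 to 32.8% and U from 14.9 to 33%. Toxic seeds were thus rich in both G and C.

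The letters differed by position in the seed as well. G stood at position 2 in 56.7% of the toxic seeds and in 43.7, 29.0 and 14.7% of the next 3 bins. C stood at position 7, the last of the seed, in 64.3% of toxic seeds and in 48.2, 32.5, 13.6 and 7.4% of the others in the same order, while A stood there in 3.1% of toxic seeds. Among the sequences shown above, the seeds of miR-22-3p, miR-708-5p, miR-667-3p, miR-365-3p, miR-193a-3p and the miRNAs that share them have C at this position, while miR-744-5p has G and miR-879-5p has U. Seeds with 3 or more G were 45.1% of the toxic ones and 3.4% of those of 80% or more.

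Counted the other way, 1.81% of the seeds without G were toxic, 4.36% of those with 1 G, 5.90% with 2, 12.9% with 3, 24.6% with 4 and 55.6% with 5 (10 of 18 seeds). The single seed of 6 G was not toxic. By CPM, G made 38.8% ± 1.1 of the bases in toxic seeds of het and 39.0% ± 1.2 in ko, against 26.7 and 27.2% in all seeds. The genotypes differed by less than the spread between libraries.

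At the threshold itself, the toxic seeds just inside were GUAACC (19.8%), GACGGG and CGGCGG (both 19.7%) and, at 19.6%, GGCGAC with 0.0754 CPM and AAGGGC, a seed of miR-300-3p with 84.0 CPM. The nearest outside were CUGCCC and GGAAGU (both 20%). Other seeds between these and 20.4%, such as GAGCUU (20.1%, 28.5 CPM) and GCAGGU (20.3%, 16.6 CPM), were low, and CUGGAC (20.4%) is named here for its level. CUGCCC had 571 CPM, mainly from miR-324-3p, and CUGGAC had 693 CPM, mainly from miR-378a-3p, so each is more abundant than any toxic seed but the first 3.

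The genotypes were then compared member by member in fits across all seeds, species and reads of at least 10 CPM in the mean, which 71 toxic seeds, 77 toxic species and 129 toxic reads reached. No strongly toxic member passed an adjusted p of 0.05 in limma at any of the 3 levels. Over everything tested, 0.303% of seeds, 0.389% of species and 0.485% of reads passed. At an unadjusted p under 0.05, 1 of the 71 toxic seeds passed (5.76% of all seeds), 3 of the 77 species (6.14% of all species) and 11 of the 129 reads (5.3% of all reads), and all were lower in ko but for 1 read. With the recovered counts, edgeR called 0 toxic seeds (0.101% of all seeds), 0 toxic species (0.389% of all species) and 0 toxic reads (0.424% of all reads). DESeq2 called 0 toxic seeds (0.508% of all seeds), 1 toxic species (0.704% of all species) and 0 toxic reads (0.823% of all reads). Limma blocked on replicate number called 0 toxic seeds (0.404% of all seeds), 1 toxic species (0.699% of all species) and 0 toxic reads (0.788% of all reads).

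The medians and directions of the toxic members stood close to those of all features for seeds and species, and lower for reads. The median log2 difference of ko from het was −0.06 for toxic seeds against −0.05 for all seeds, and −0.02 for toxic species, the same as for all species. For reads it was −0.14 against −0.02. Below 0 were 40 of 71 toxic seeds (56.3%, all seeds 56.1%), 41 of 77 toxic species (53.2%, all species 51.9%) and 75 of 129 toxic reads (58.1%, all reads 51.6%).

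The species with the smallest p was miR-193a-3p. It had 131.3, 217.3, 70.3 and 92.7 CPM in het and 33.3, 54.8, 40.4 and 43.1 CPM in ko. Every ko library was below every het library, and the second het library stood highest. Its log2 difference was −1.45 (SE 0.36, limma unadjusted p = 0.0014, adjusted p = 0.225), and DESeq2 on the recovered counts gave −1.50 with an adjusted p of 0.0171. Over all species 2.49% did not overlap between the groups, and of the 77 toxic species 2 did not: miR-193a-3p, and the let-7c-2 reads with GAGGCA.

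The related miR-193b-3p, which has the same seed ACUGGC, had 145, 116, 141 and 92.7 CPM in het and 167, 136, 220 and 96.0 CPM in ko. Its log2 difference was 0.28 (SE 0.31, limma adjusted p = 0.938), so the 2 sources of this seed had differences of opposite sign. Mir193a lies at chr11:79711969-79712034 outside annotated genes, and Mir193b at chr16:13449523-13449601. The summed epithelial marker miRNAs, 5 of 5 detected and none at 0, also separated the groups, with 2177 to 8424 CPM in het and 163 to 1718 CPM in ko. Their part in the miR-193a-3p level was not tested.

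The species with the next smallest p was miR-879-5p, whose log2 difference was −1.78 (SE 0.55, limma adjusted p = 0.454). A limma fit blocked on replicate number called it (adjusted p = 0.0208), although those numbers do not pair the libraries. It was followed by a toxic start of miR-326-3p, UCUGGG, at −0.89 (SE 0.38, limma adjusted p = 0.768), and miR-708-5p had −0.68 (SE 0.33, limma adjusted p = 0.810). As a seed UCUGGG was the 1 that limma gave an unadjusted p under 0.05 (−0.82, limma adjusted p = 0.843). On the other side, miR-7044-3p had 1.03 (adjusted p = 0.810) and the SerAGA fragment 1.68 (SE 0.97, adjusted p = 0.894), the latter falling to 0.63 without the fourth ko library. A piRNA-named species, DQ540915 with CAUAGC (8.2%), had 0.65 (SE 0.41, limma adjusted p = 0.894). Among seeds, ACCACC (16%, with miR-29a-3p as its most abundant source) had −0.69 (SE 0.36, limma adjusted p = 0.849), UGCAGC 0.98 (SE 0.51, limma adjusted p = 0.849), CCUGCC 1.19 (SE 0.70, limma adjusted p = 0.926) and CAUAGC 0.65 (SE 0.39, limma adjusted p = 0.926). The CCUGCC difference ranged from 0.44 to 2.31 over the alternatives given below. That seed had 209 CPM in the fourth ko library, against 15.4 to 43.0 CPM in the other ko libraries. Without the replicate block, none of the species and seeds named in this paragraph passed in limma.

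Among seeds, GAGGCA alone of the 71 tested did not overlap between the groups, where 1.72% of all seeds did not. It had 181, 212, 200 and 207 CPM in het and 306, 241, 254 and 217 CPM in ko (200 ± 13 against 254 ± 38, SD, n = 4 each), a log2 difference of 0.34 (SE 0.24, limma unadjusted p = 0.175, adjusted p = 0.949). This is the seed of the changed let-7 reads described above.

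At the level of single reads, of the 129 toxic reads 6 did not overlap between the groups, 5 lower and 1 higher in ko, where 3% of all reads did not overlap. The full-length read of miR-193a-3p was at 65.6, 145.1, 45.0 and 35.7 CPM in het and 24.8, 32.4, 19.8 and 19.6 CPM in ko (−1.37, SE 0.44, limma adjusted p = 0.571), and the read without its last T also separated. The 1 higher in ko was the let-7c read with T6C shown above, at 38.6, 37.1, 29.1 and 34.2 CPM in het and 52.2, 38.7, 41.2 and 51.9 CPM in ko. The other non-overlapping reads lower in ko carried GACUCC of miR-136-5p, GACCCU of miR-504-5p and AAGGGC of miR-300-3p.

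By p, the reads next to miR-193a-3p on the lower side were 1 read each of miR-708-5p and miR-879-5p, shown to tell them from the other reads of these miRNAs.
miR-708-5p read: aAGGAGCTtacaatctagctgt
miR-879-5p read: aGAGGCTTatagctctaagcct
The miR-708-5p read had 52.1, 37.8, 26.4 and 42.4 CPM in het and 9.9, 27.5, 18.5 and 9.8 CPM in ko, with only the second ko library inside the het range (−1.31, SE 0.42, limma adjusted p = 0.603). The miR-879-5p read had −2.20 (SE 0.71, limma adjusted p = 0.603), with its second het library at 132 CPM and all others at 22.2 CPM or less. On the higher side were a miR-744-5p read (1.24, SE 0.56, limma adjusted p = 0.931), the let-7a read with T6C (0.73, SE 0.38, limma adjusted p = 0.973) and a miR-505-5p read (0.81, SE 0.51, limma adjusted p = 0.973). None of these reads passed, and each of their groups overlapped.

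The miRNAs fixed as a DISE list (the miR-34/449 and miR-15/16 families, 10 miRNAs described as carriers of G-rich toxic seeds) were not members. Their main seeds GGCAGU (25.1%) and AGCAGC (37.8%) lie above the threshold of 20%, and none passed an adjusted p of 0.05. miR-34c-5p had a log2 difference of −0.67 (SE 0.27, limma unadjusted p = 0.0256, adjusted p = 0.768). Reads under their names in which 1 base of the main seed was changed did carry toxic seeds: miR-497a-5p had 29.9 toxic CPM, miR-16-5p 21.7, miR-15a-5p 3.56, miR-195a-5p 1.38 and miR-34a-5p 1.04. Not in these values are the A5G reads with AGCGGC, at 17.4 CPM for miR-16-5p and 4.14 CPM for miR-15a-5p, which are not under these names. The unchanged miR-16-5p was at 12047 CPM, which shows how small these parts are.

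The marker miRNAs fixed for the tissue bear on its label. All 4 neuronal markers were detected in every library (170074 to 274723 CPM summed), as were both glial (4002 to 9574 CPM) and both endothelial ones (6038 to 11931 CPM). Immune markers (5 of 5) summed to 2439 to 4550 CPM, the 2 choroid plexus markers to 2117 to 4665 CPM with 1 of them at 0 in a library, and 2 of 4 erythroid markers were found, at 701 to 3126 CPM. Apart from the epithelial markers, each of these sums overlapped between the genotypes.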

How the data were processed

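RNA bound to Argonaute was pulled down with a GW182 peptide from combined cortex and hippocampus, size selected on a gel and sequenced on an Illumina HiSeq. The authors trimmed the reads (Trim Galore, no version given), compiled them, removed rare reads, matched them by BLAST to lists of mouse small RNAs and deposited, for each read sequence, its CPM in 8 libraries. Every CPM came out as a whole number of reads within the tolerance set (100% of values, largest tolerance 0.0319 reads), so raw counts were recovered as an alternative. The deposited viability score, added by the authors for each 6mer seed, is the mean over 3 mouse cell lines. The deposited total signal, a sum of the CPM columns, was not used. The tabulated CPM sum to 98.4 to 99.8% of 1000000 per library, and the genome build behind the names is not given in the sources used here. Positions and mature sequences are those of GRCm38 (RefSeq, and GENCODE for host genes), matched by miRNA name.

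Members were reads with a viability under 20, summed by seed and by RNA name and seed. Genotypes (4 het, 4 ko) were compared by limma 3.58.1 in R 4.3.3 on log2(CPM + 1), which understates changes of low features, over all features with a mean of 10 CPM or more, with Benjamini-Hochberg adjustment over all of them and a call at an adjusted p under 0.05. edgeR 4.0.16 and DESeq2 1.42.0 were run on the recovered counts. Sums over members have no p. Other alternatives were the pseudocount, the minimum level, median centring, a replicate block, leaving out each library or both libraries above 5000000 reads, other viability thresholds and thinning to equal depth. The fits were checked on simulated data. Tables were handled with pandas 2.3.3, and Wilson intervals (95%) were computed with scipy 1.17.1 in Python 3.11.15. Intervals cover counting error only, since PCR copies are not independent molecules.

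Named were the 10 seeds and 15 species of highest CPM, the 3 most abundant names outside mature miRNAs, the 3 members with the smallest p in each direction of each fit, seeds next to the threshold and the DISE list. Other members described by start, base change or separation of the groups were chosen after their values were seen. The members and lists were chosen with earlier results of these data known.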

Additional observations from a re-analysis of the deposited data

Results flagged for a closer look

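In 12 of 130 groups of 4 libraries examined (9.23%), 1 library lay far from the other 3 by Dixon's criterion. The criterion flags about 5% of groups by chance when values are independent and normally distributed. Some values here are nested, such as a seed and its source, so the 9.23% cannot be set against that rate. The fourth ko library accounted for 4 of the 12. It had 209 CPM of the seed CCUGCC against 15.4 to 43.0 CPM in the other ko libraries, and 165 CPM of its SerAGA tRNA source against 3.82 to 25.4 CPM. It also had 240.0 CPM of the LeuAAG fragments with CCCACC against 7.38 to 27.5 CPM, and 410 CPM of miR-34b-5p against 103 to 118 CPM.

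The second het library had 64.2% of its toxic CPM in the miR-22-3p seed AGCUGC, where the other het libraries had 54.7 to 54.8%. It had 258 CPM of miR-879-5p against 63.1 to 82.3 CPM, and 184 CPM of the GCUGAC start of miR-345-5p against 276 to 293 CPM.

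The first het library, the shallowest of all, had 4.04% of its toxic CPM in reads of 15 to 18 nt against 2.18 to 2.42%, and 7.72 CPM of the seed CAUAGC against 15 to 15.9 CPM. The third het library had 364 CPM of miR-15b-5p against 486 to 492 CPM. The second ko library had 366 CPM of miR-34c-5p against 228 to 242 CPM. In the third ko library the CPM-weighted mean viability of toxic reads was 14.6%, against 14.5 to 14.6% in the other ko libraries after rounding, so the gap is small. The causes were not tested.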

How the results depend on the processing

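Over 17 alternatives for each fit, the number of toxic seeds and of toxic reads called stayed at 0, and that of toxic species was 0 in all but a pair of them. DESeq2 on recovered counts called 1 species, miR-193a-3p (−1.50, adjusted p = 0.0171). The replicate block called 1 species, miR-879-5p (−1.78, adjusted p = 0.0208). The cause was not tested in either case. Of 42 named members, the 23 more than 1 SE from 0 kept their direction in all of these alternatives, and 18 of the 19 within 1 SE of 0 changed sign in at least 1. With a viability under 25, the CPM-weighted mean viability differed by 0.247 percentage points (17.5% in het, 17.8% in ko) in place of 0.00819.

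The toxic share differed by −0.324 percentage points (ko minus het), by −0.556 to −0.111 with 1 library left out, the last without the fourth ko library, by −0.506 without both deep libraries, by −0.0672 without AGCUGC, and by −0.324 at 509839 reads per library. The share of mature names differed by −2.76 points, and by −0.0375 without the fourth ko library. The difference in G content ranged from −0.257 to 0.801 points with 1 library left out (0.237 with all), and was −0.0555 under 25.

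Replicate numbers 1 to 4 are shared by both genotypes but do not pair the libraries: the correlation of same-numbered deviations in the seed fit was −0.14, 0.12, −0.21 and 0.10. With the block, toxic calls were 0 seeds, 1 species and 0 reads, against 0 of each without it. Depth limits most the first het library, where 10 CPM is about 5 reads.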
